A study of Mus musculus with 4 samples.

Results

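The genes described here encode the STAT transcription factors, matched by gene symbol in the deposited count tables. The 6 genes *Stat2*, *Stat3*, *Stat4*, *Stat5a*, *Stat5b* and *Stat6* were found among the 55367 gene symbols of each table. Their RNA was measured in splenic CD4+ T cells of C57BL/6 mice, in 4 libraries, 2 of them from wild-type (WT) and 2 from *Satb1* conditional knockout (cKO) animals by their labels. The cKO mice carry floxed *Satb1* alleles and *Thpok-cre*, which acts once thymocytes have chosen the CD4 lineage, so the deletion is not limited to one subset of CD4+ T cells. The labels give neither the age nor the sex of the mice, no treatment is listed, and the alleles of the WT mice are not given in the labels. SATB1 organises the genome in the nucleus of T cells, and the comparison asks which transcripts differ when its gene is deleted in mature CD4+ T cells.

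STAT proteins wait in the cytoplasm until a cytokine binds its receptor at the cell surface. Janus kinases bound to the receptor chains then phosphorylate the STAT, which pairs with another STAT, enters the nucleus and binds DNA. In CD4+ T cells the members are known for separate jobs: STAT4 acts downstream of IL-12 in type 1 helper cells, STAT6 downstream of IL-4 in type 2 helper cells, STAT3 downstream of IL-6, IL-10 and IL-21, and STAT5A and STAT5B downstream of IL-2 and IL-7, including the maintenance of regulatory T (Treg) cells. STAT2 works with IRF9 in the response to type I interferon. Transcript level says nothing of phosphorylation, which was not measured here.

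The total gene count of a library lay between 4495902 and 6555699. A count of 3, the limit that a count of 0 allows, is worth 0.458 to 0.667 CPM (gene counts scaled to a library of 1000000), and all 6 STAT genes lay far above it. The *Satb1* gene itself was at 868 and 984 CPM in the libraries labelled WT and at 945 and 847 CPM in those labelled cKO, with a log2 fold change of -0.05 (edgeR quasi-likelihood adjusted p = 0.877). The gene count thus does not separate the genotypes, and directions below follow the labels. *Xist* counted 5447 and 4235 in WT 1 and WT 2, but 9 and 6 in cKO 1 and cKO 2. *Ddx3y* on chromosome Y counted 0 in either WT library and 525 and 597 in cKO 1 and cKO 2, so genotype and this sex-linked pattern cannot be told apart. None of the STAT genes lies on chromosome X or Y. Of the marker genes, *Cd4* was at 1183 to 1279 CPM. The CD8 markers were lower, with *Cd8a* at 4.25 to 6.86 CPM and *Cd8b1* at 22.5 to 52.0 CPM. Markers of other cell types are given below.

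In GRCm38 (mm10) coordinates, 3 of the STAT genes sit side by side on chromosome 11. *Stat5b* (chr11:100780731-100850724, minus strand), *Stat5a* (chr11:100859351-100885169, plus strand) and *Stat3* (chr11:100885098-100939540, minus strand) follow each other. *Stat6* (chr10:127642986-127660957) and *Stat2* (chr10:128270559-128292849) lie on the plus strand of chromosome 10. *Stat4* (chr1:51987148-52107189) lies on the plus strand of chromosome 1.

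How well a 50-base read can be placed on one member depends on sequence shared between them. *Stat5a* and *Stat5b* agreed at 90.7% of 2294 aligned coding bases, whereas the other pairs of members agreed at 58.3% to 65.3%. Exon 7 of both genes holds the same 152 bases, at chr11:100874339-100874490 (plus strand) for *Stat5a* and chr11:100798234-100798385 (minus strand) for *Stat5b*. It is shown because a read that lies wholly within it cannot be assigned to either gene.
Stat5a and Stat5b exon 7: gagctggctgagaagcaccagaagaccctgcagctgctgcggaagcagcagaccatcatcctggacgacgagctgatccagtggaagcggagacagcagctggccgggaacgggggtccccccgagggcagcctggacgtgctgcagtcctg
Near the start of the coding sequence the 2 genes part. The window from coding base 85 to 144, which spans exons 2 and 3 of both genes, held 19 mismatches, here in capitals, and shows the kind of stretch by which reads of the 2 genes are told apart.
Stat5a: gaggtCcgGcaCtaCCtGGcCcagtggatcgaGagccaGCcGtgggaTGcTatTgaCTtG
Stat5b: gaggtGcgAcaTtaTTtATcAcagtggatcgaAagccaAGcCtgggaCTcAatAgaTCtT
Of all 50-base words in the annotated transcripts, 8.52% of those of *Stat5a* and 10.98% of those of *Stat5b* also occurred in another gene. The shares were 0.788% for *Stat2*, 0.555% for *Stat3* and 0% for *Stat6*. For *Stat4* the share was 21.7%, all of it with *Gm28177*, a gene annotated on the same strand over 26.7% of the exonic bases of *Stat4*. *Gm28177* had 3, 0, 1 and 1 counts in WT 1, WT 2, cKO 1 and cKO 2. The counting program by default leaves out reads that overlap more than 1 gene. *Gm28177* is among the genes counted, so the annotation used holds it. Reads from that stretch of *Stat4* then do not enter its level, provided the extent of *Gm28177* is as annotated here. Reads that align to more than 1 place, as those within exon 7 of the *Stat5* pair do, are likewise left out. The small overlaps of *Stat3* with *Stat5a* (72 bases) and of *Stat6* with *Nab2* (40 bases), which are on opposite strands, covered at most 1.01% of any member.

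No STAT gene was called between the genotypes. The threshold was an adjusted p under 0.05 by edgeR's quasi-likelihood fit, with adjustment over all 12403 genes tested. All 6 members passed the filter on low counts, and 0 of 6 were called, where 4.3% of all tested genes were called. *Stat3*, *Stat6* and *Stat5b* were each higher in both cKO libraries than in both WT libraries, by 18% to 31% on average. *Stat5a* and *Stat4* lay within a few percent of their WT levels, and *Stat2* was high in 1 of the 2 cKO libraries. At an unadjusted p under 0.05 there were 2 of 6 members, *Stat3* and *Stat6*, both higher in cKO, where 19.1% of tested genes had such a p and 9.72% had it with a higher level in cKO. The sign was positive for 5 of 6 members, as for 49.8% of tested genes. The genotypes did not overlap for 4 of 6 members, close to the 50.3% of all tested genes, with 3 members higher in cKO (24.8% of tested genes) and 1 lower (25.4%).

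**Figure D1:**
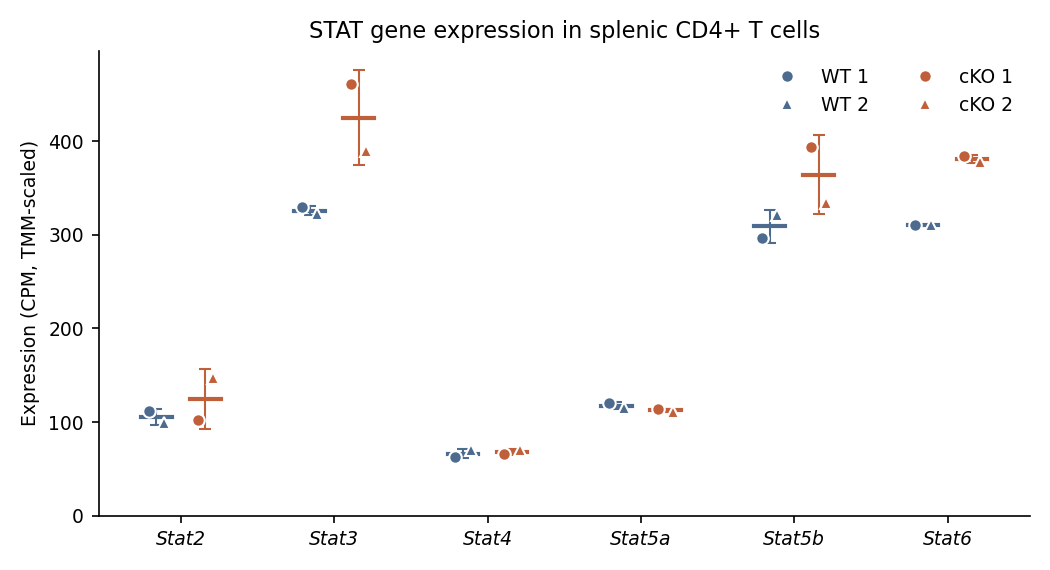
Expression of each STAT gene in CPM (TMM-scaled gene counts) by library. Circles are replicate 1 and triangles replicate 2 of WT (blue) and cKO (orange), thick bars are means and error bars are the SD of 2 libraries. *Stat3*, *Stat5b* and *Stat6* lie higher in both cKO libraries, whereas *Stat2* is raised in cKO 2 alone at 147 CPM.

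*Stat3*, whose product carries signals of the IL-6, IL-10 and IL-21 receptors, was counted 2154 and 1438 times in WT 1 and WT 2, and 2420 and 1833 times in cKO 1 and cKO 2. Expression was 329 and 322 CPM in WT 1 and WT 2 against 461 and 390 CPM in cKO 1 and cKO 2. Both cKO libraries lay above both WT libraries, and the cKO libraries were further apart from each other than the WT libraries were. Mean expression was 326 ± 5.14 CPM in WT and 425 ± 50.6 CPM in cKO (SD, n = 2 each). On the log2 scale the difference was 0.38 (SE 0.11, 95% interval 0.13 to 0.64), or 1.31-fold (1.10 to 1.56), and the adjusted p was 0.0973. In this and the other fits that used all 4 libraries the adjusted p of *Stat3* ran from 0.0155 to 0.104, so whether it is called depends on the test and the filter. Without cKO 2 the adjusted p was 1.50e-05 and without cKO 1 it was 0.0428, whereas without WT 1 and without WT 2 it was 0.387 and 0.596. Its log2 fold change stayed between 0.26 and 0.50 in these 4 fits.

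*Stat6*, which relays IL-4 and IL-13, showed the closest replicates of the family relative to its mean. It was at 311 CPM in both WT libraries and at 384 and 378 CPM in the cKO libraries, from 2032, 1388, 2014 and 1777 counts. The gap between genotypes was wider than the gap within either of them. That gap was 0.29 as a log2 fold change (SE 0.09, 95% interval 0.08 to 0.51), or 1.22-fold, with an adjusted p of 0.131. Leaving out a library moved this value only between 0.28 and 0.31. The call nevertheless changed, with an adjusted p of 0.0272 without cKO 1 and 0.00785 without cKO 2, but 0.622 without WT 1 and 0.693 without WT 2.

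*Stat5b* and *Stat5a*, the neighbouring genes that relay IL-2 and IL-7, had values on either side of 0, and the difference between them was not tested by a fit. *Stat5b* was at 297 and 322 CPM in the WT libraries and at 394 and 334 CPM in the cKO libraries. These do not overlap, but cKO 2 lay nearer to WT 2 than to cKO 1. *Stat5b* had a log2 fold change of 0.24 (SE 0.11, 95% interval -0.02 to 0.49) and an adjusted p of 0.299. Without cKO 2 it was 0.35 (adjusted p = 0.00230), and without cKO 1 it was 0.11 (adjusted p = 0.431). *Stat5a* was at 120 and 115 CPM in the WT libraries and at 114 and 111 CPM in the cKO libraries. It was slightly lower in both cKO libraries, with a log2 fold change of -0.06 (SE 0.10, 95% interval -0.29 to 0.17) and an adjusted p of 0.800. The interval leaves room for a fall of 18.2% and for a rise of 12.2%.

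*Stat4*, the IL-12-responsive member, was the lowest in counts, with 409 and 311 in WT 1 and WT 2, and 343 and 329 in cKO 1 and cKO 2. It was at 62.6 and 69.7 CPM in WT 1 and WT 2 and at 65.4 and 69.9 CPM in cKO 1 and cKO 2, and the genotypes overlapped. Its log2 fold change was 0.04 (SE 0.12, 95% interval -0.23 to 0.30) and an adjusted p of 0.906. Its sign turned without WT 1, to -0.037, and without cKO 2, to -0.0094.

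*Stat2*, the interferon member, varied most between the cKO libraries relative to its mean, with an SD of 31.9 CPM on 124 CPM. It was at 112 and 99.5 CPM in the WT libraries, at 102 CPM in cKO 1 and at 147 CPM in cKO 2. Only cKO 2 lay above the WT libraries, while cKO 1 lay between them. Between genotypes the log2 fold change was 0.23 (SE 0.17, 95% interval -0.15 to 0.61) and an adjusted p of 0.506. Without cKO 1 it was 0.47 (adjusted p = 0.00786), and without cKO 2 it was -0.057 (adjusted p = 0.814), so its direction rests on cKO 2.

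Counts per kilobase of exon allow the members to be ranked against each other. The CPM per kb averaged over the 4 libraries was 78.6 for *Stat6* (70.6 to 87.2), 60.8 for *Stat5b* (53.5 to 71.1) and 39.4 for *Stat3* (33.8 to 48.4). The lower group held *Stat2* at 19.4 (16.8 to 24.8), *Stat4* at 17.3 (16.2 to 18.1) and *Stat5a* at 16.1 (15.6 to 16.8). *Stat6* was above *Stat5b* in each library although their ranges overlap slightly. The ranges of *Stat2*, *Stat4* and *Stat5a* overlap. *Stat2* was above *Stat5a* in each library, whereas the order of *Stat4* against *Stat2* and against *Stat5a* changed between libraries. With the length of the longest transcript in place of the union of exons, *Stat3* came to 62.2 and overlapped *Stat5b* at 64.6, *Stat5a* came to 29.0 and led *Stat2* at 26.2, and *Stat4* was last at 22.4. With the length of *Stat4* taken without the 1033 bases under *Gm28177*, its level was 23.6 CPM per kb (22.0 to 24.6), which put it above *Stat2*, with overlapping ranges. Reads over those bases are left out of the *Stat4* count, as described above, so 17.3 understates its level. In each of these rankings *Stat6*, *Stat5b* and *Stat3* were the upper 3 and *Stat2*, *Stat4* and *Stat5a* the lower 3.

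The STAT genes together took a larger share of the gene count in the cKO libraries. That share was 0.123% in WT 1 (95% Wilson interval 0.120 to 0.125) and 0.123% in WT 2 (0.120 to 0.126), against 0.148% in cKO 1 (0.145 to 0.152) and 0.145% in cKO 2 (0.142 to 0.149). Intervals cover counting error only. The summed level was 1231 and 1239 CPM in the WT libraries and 1520 and 1430 CPM in the cKO libraries. For 2 libraries a side the smallest p that an exact permutation test (two-sided) allows is 0.333, so this sum and the ratios below are given as values with no call.

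Ratios of counts within a library do not depend on how libraries are scaled. Of the 15 pairs of members, 7 had ratios that did not overlap between the genotypes. The share of such ratios over other gene pairs was not computed and the pairs share genes, so this number is a description. For the levels of single genes, a different measure, 50.3% of those tested did not overlap. *Stat5a* to *Stat5b* was 0.404 and 0.357 in WT 1 and WT 2, but 0.289 and 0.332 in cKO 1 and cKO 2, so the cKO mean was 0.816 of the WT mean. Leaving out a library kept that quotient between 0.759 and 0.874. *Stat5a* to *Stat6* was 0.386 and 0.369 against 0.296 and 0.294, the pair with the widest gap relative to its replicates among those with *Stat5a*. *Stat3* to *Stat5a* was 2.75 and 2.81 against 4.05 and 3.50. Among the 3 members that were higher in cKO, *Stat3* to *Stat5b* was 1.111 and 1.001 against 1.170 and 1.165, which did not overlap. *Stat3* to *Stat6* was 1.060 and 1.036 against 1.202 and 1.032, and *Stat5b* to *Stat6* was 0.954 and 1.03 against 1.03 and 0.885, both overlapping.

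**Figure D2:**
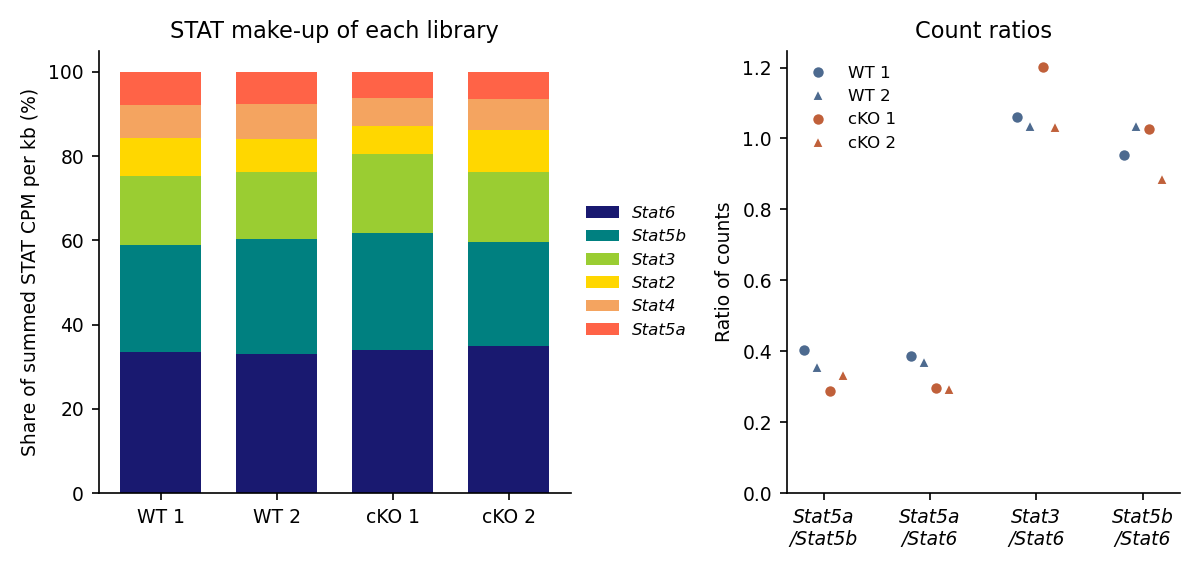
Left, share of each STAT gene in the summed STAT level of a library, in percent of CPM per kb of exon. Right, ratios of raw counts between pairs of STAT genes by library, with circles for replicate 1 and triangles for replicate 2 of WT (blue) and cKO (orange). *Stat5a* takes 7.98% and 7.54% of the sum in WT 1 and WT 2, but 6.21% and 6.35% in cKO 1 and cKO 2, and its ratios to *Stat5b* and *Stat6* are lower in both cKO libraries.

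All 4 Janus kinases, the enzymes that phosphorylate STATs at the receptor, were higher in both cKO libraries than in both WT libraries, as 24.8% of tested genes were, and 0 of 4 were called, where 4.3% of tested genes were. *Jak3*, which pairs with the common gamma chain of the IL-2 receptor family, was at 184.3 and 186.6 CPM against 261 and 204.5 CPM, with a log2 fold change of 0.33 (adjusted p = 0.198). *Jak2*, which serves the IL-12 and interferon gamma receptors, was at 196 and 214 CPM against 244 and 258 CPM, with 0.29 (adjusted p = 0.149). *Tyk2*, a kinase of the type I interferon and IL-12 receptors, had 0.26 (adjusted p = 0.261), and *Jak1*, the most highly expressed of the 4 in CPM, had 0.14 (adjusted p = 0.577). Apart from *Jak1*, the differences of these kinases lay within the range of 0.24 to 0.38 spanned by *Stat5b*, *Stat6* and *Stat3*. The values of *Jak3*, *Tyk2* and *Jak1* rest in part on single libraries. Leaving out a library leaves 1 in its genotype, so the adjusted p then takes its spread from the other genotype. *Jak3* had 0.14 without cKO 1 (adjusted p = 0.358) and 0.49 without cKO 2 (adjusted p = 6.24e-05). *Tyk2* had 0.38 without cKO 1 (adjusted p = 0.0225) and 0.13 without cKO 2 (adjusted p = 0.480), and *Jak1* had 0.085 without cKO 1 (adjusted p = 0.551). *Jak2* stayed between 0.23 and 0.35 with each library left out.

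Cytokine receptor chains, which bring the kinases and STATs together, held 4 of the 9 called genes of the pathway. Of 22 chains, 19 passed the filter on low counts, and 4 of these were called, all higher in cKO, where 2.35% of all tested genes were called higher. The median log2 fold change of the 19 was 0.23, beside -0.0015 over all tested genes. The untested chains were *Il23r*, *Osmr* and *Lifr*.

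*Il10ra*, the ligand-binding chain of the IL-10 receptor upstream of STAT3, was at 53.1 and 59.2 CPM in the WT libraries and at 193 and 162 CPM in the cKO libraries. It rose 3.17-fold, with a log2 fold change of 1.66 and an SE of 0.13 (adjusted p = 0.000272). *Ifngr1*, a chain of the interferon gamma receptor, rose from 234 and 198 CPM to 520 and 481 CPM, with 1.21 and an SE of 0.11 (adjusted p = 0.000889). Each of these was called in every alternative fit and with each library left out.

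*Il7r*, the IL-7 receptor chain that signals to STAT5, was at 365 and 486 CPM against 1052 and 697 CPM, a log2 fold change of 1.04 with an SE of 0.20 (adjusted p = 0.0257). In DESeq2 its adjusted p was 0.0760. *Il4ra*, the IL-4 receptor chain that docks STAT6, was at 330.5 and 352.2 CPM against 535 and 440 CPM, with 0.51 and an SE of 0.12 (adjusted p = 0.0490). Its call was lost without WT 1 (0.47, adjusted p = 0.271) and without WT 2 (0.56, adjusted p = 0.323), and part of its exonic sequence (9.51%) overlaps *Gm44876* on the opposite strand. *Il2ra* and *Il2rb*, chains of the IL-2 receptor, had log2 fold changes of 0.84 (adjusted p = 0.0509) and 0.37 (adjusted p = 0.0849) and were not called in this fit. Both were higher in both cKO libraries. *Il2ra* passed the threshold in 10 of 12 alternatives, with an adjusted p of 0.00453 in DESeq2, and *Il2rb* in 5 of 12. Without WT 1 *Il2ra* had 1.27 (adjusted p = 1.41e-05), and without WT 2 it had 0.54 (adjusted p = 0.248).

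**Figure D3:**
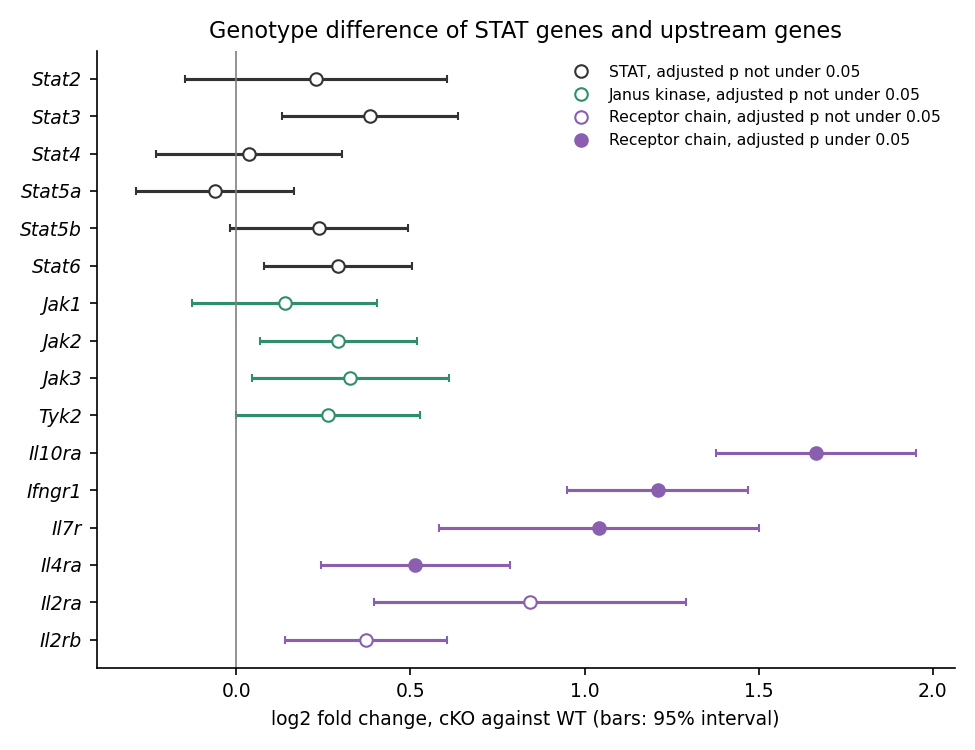
Log2 fold change of cKO against WT (x axis) for the 6 STAT genes, the 4 Janus kinases and the receptor chains named in the text. Points are edgeR estimates, bars 95% intervals, and filled points have an adjusted p under 0.05. The STAT genes lie between -0.06 and 0.38 and the kinases between 0.14 and 0.33, below the called receptor chains at 0.51 to 1.66.

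Cytokine ligands were scarcely expressed in these cells. Only 4 of 16 passed the filter, and 0 of these 4 were called, beside 4.3% of all tested genes, so the count says nothing particular of the list. *Osm*, a gene that STAT5 activates, had 35.3 and 30.7 CPM in the WT libraries and 25.5 and 19.6 CPM in the cKO libraries (log2 fold change -0.55, adjusted p = 0.126). *Il21*, whose product signals through STAT3, had 14 and 6 counts against 19 and 24 (1.26, adjusted p = 0.149), with 8.92% of its exonic bases under *Gm12534* on the opposite strand. *Il6*, *Il9*, *Il13* and *Il22* had 0 counts in all 4 libraries.

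Among the inhibitors and phosphatases that damp the pathway, all 18 genes passed the filter and 1 was called, a share near the 4.3% of all tested genes. That gene was *Pias3*, named for its protein's inhibition of activated STAT3. It was at 17.3 and 15.7 CPM in the WT libraries and at 30.9 and 28.1 CPM in the cKO libraries, with a log2 fold change of 0.83 and an SE of 0.16 (adjusted p = 0.0265). The call was lost in DESeq2 (adjusted p = 0.0705) and without WT 2 (0.77, adjusted p = 0.210). *Sh2b3*, an adaptor that restrains Janus kinases, had 0.36 (adjusted p = 0.0924), and *Cish*, a feedback inhibitor induced by STAT5, had 0.40 (adjusted p = 0.140). Neither was called.

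Genes that respond to type I interferon through STAT2 and IRF9 had a median log2 fold change of 0.03, and 0 of 16 were called, beside 4.3% of all tested genes, so the count says nothing particular of the list. Like *Stat2*, they separated the cKO libraries. In 15 of 16 of them cKO 2 was higher than cKO 1, where 48.9% of all tested genes were, the exception being *Ifi44* with 11 and 8 counts. Between the WT libraries, 8 of 16 were higher in WT 2, where 50.1% of tested genes were. The summed level of the list was 815 and 827 CPM in the WT libraries, 678 CPM in cKO 1 and 1033 CPM in cKO 2.

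*Irf9*, the DNA-binding partner of STAT2, was at 171 and 166 CPM in the WT libraries, 175 CPM in cKO 1 and 236 CPM in cKO 2. The viral sensor gene *Ifit1* was at 52.9 and 53.8 CPM, 36.0 CPM and 77.2 CPM. *Mx1*, an antiviral GTPase gene, was at 10.6 and 13.9 CPM, 4.76 CPM and 15.5 CPM. For both *Ifit1* and *Mx1* cKO 1 lay below the WT libraries and cKO 2 above them. Over the list, cKO 1 was below both WT libraries for 12 of 16 genes, where it was for 40.5% of all tested genes, whereas for *Stat2* it lay between them. cKO 2 was above both WT libraries for 13 of 16, beside 39.4% of all tested genes, the others being *Ifit3*, *Oasl2* and *Ifi44*. *Oas1a*, with 1.35 (adjusted p = 0.103), and *Oasl2*, with -0.49 (adjusted p = 0.233), had the smallest p-values of the list and opposite directions. *Oasl2* had -0.20 without cKO 1 (adjusted p = 0.484) and -0.82 without cKO 2 (adjusted p = 0.00110), and *Oas1a* was called without cKO 1, at 1.67 (adjusted p = 0.0169). Other markers also separated the cKO libraries, since the 5 erythroid genes summed to 98.7 and 303 CPM in the WT libraries and to 9.68 CPM in cKO 1 and 213 CPM in cKO 2. All 5 were higher in cKO 2 than in cKO 1, and all 5 were higher in WT 2 than in WT 1. B cell and myeloid markers separated the cKO libraries the other way, with sums of 168 and 102 CPM in cKO 1 and 69.0 and 59.5 CPM in cKO 2. The part of these other cells in the interferon values was not tested.

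**Figure D4:**
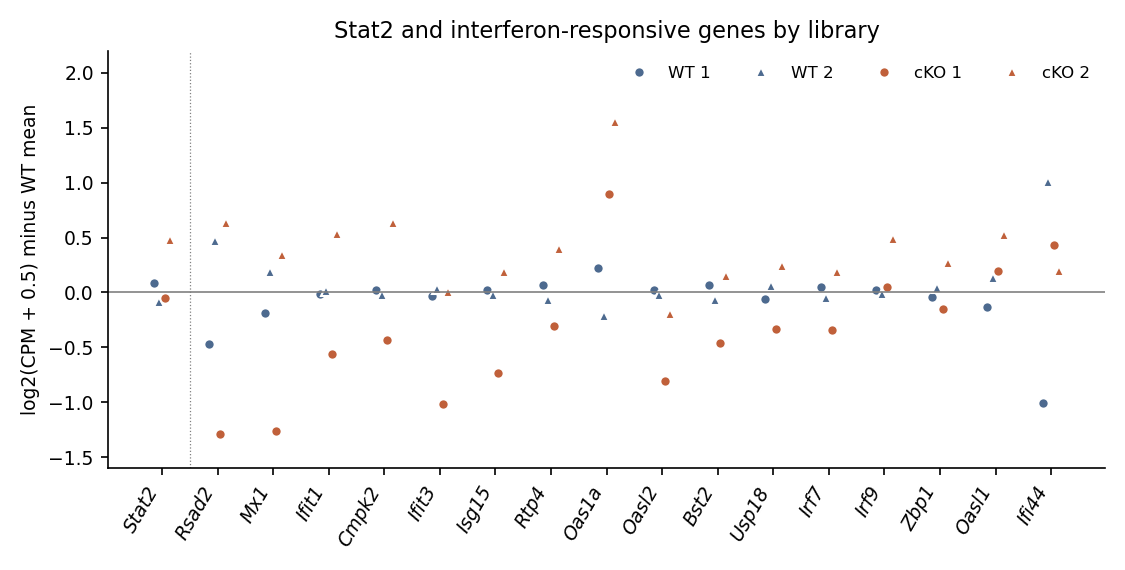
*Stat2* and the 16 interferon-responsive genes by library, as log2(CPM + 0.5) minus the mean of the WT libraries. Circles are replicate 1 and triangles replicate 2 of WT (blue) and cKO (orange), and genes are ordered by the gap between the cKO libraries. cKO 2 lies above cKO 1 for *Stat2* and for 15 of the 16 genes, with *Ifi44* as the exception.

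The upstream sequences of the STAT genes were searched for the motifs that STAT complexes bind. In RefSeq GRCm38.p6, 9 promoters (from 250 bases before to 50 after the start) matched the 6 members. The interferon-stimulated response element core, GAAA and GAAA with any 2 bases between, searched on both strands, occurred in 2 of the 9, 1 each of *Stat2* and *Stat4*. It occurred in 3.44% of all 32851 promoters and in promoters of 6 of the 12 interferon-list genes that had one. The 250 bases before the start of *Stat2*, at chr10:128270248-128270497 on the plus strand, are shown with the match in capitals.
Stat2: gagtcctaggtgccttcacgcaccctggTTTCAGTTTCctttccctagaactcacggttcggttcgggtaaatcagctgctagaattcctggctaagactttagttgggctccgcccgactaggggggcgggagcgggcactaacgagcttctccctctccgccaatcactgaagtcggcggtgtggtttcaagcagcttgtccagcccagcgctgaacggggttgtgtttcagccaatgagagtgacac
The match begins 222 bases before the start and is read on the opposite strand. The second *Stat4* promoter, at chr1:52007990-52008239 on the plus strand, has its match 97 bases before the start and is shown as the other member promoter with the match.
Stat4: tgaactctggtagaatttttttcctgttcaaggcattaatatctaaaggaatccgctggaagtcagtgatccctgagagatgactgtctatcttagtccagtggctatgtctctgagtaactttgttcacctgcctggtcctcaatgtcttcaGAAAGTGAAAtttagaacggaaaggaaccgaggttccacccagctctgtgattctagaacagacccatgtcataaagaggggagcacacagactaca
The gamma-activated site TTCNNNGAA, to which STAT dimers bind, occurred in 0 of the 9 promoters and in 8.30% of all promoters. The same half-sites with 4 bases between, known for STAT6, occurred in 1 of the 9, that of *Stat2*, just downstream of the response element, and in 6.95% of all. A match of letters is not evidence of binding.

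Genes known to lie downstream of the other STATs moved in both directions. Of 11 genes of the STAT3 list 9 were tested, with a median log2 fold change of 0.30. *Maf*, a factor of IL-10- and IL-21-producing cells, had 0.53 (adjusted p = 0.0673).

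Of the 9 genes of the STAT4 list 7 were tested and 1 was called, lower in cKO, where 1.95% of all tested genes were called lower. The median log2 fold change of the 7 was -0.65. Both cKO libraries lay above both WT libraries for 3 of the 7 and below them for 4, beside 24.8% and 25.4% of all tested genes. *Tbx21*, which encodes T-bet, the regulator of type 1 helper cells, fell from 26.8 and 21.1 CPM to 9.15 and 14.2 CPM (-1.05, SE 0.24, adjusted p = 0.0494). Its adjusted p was above the threshold with total-count scaling (0.0534), in DESeq2 (0.0582), without WT 1 (0.158) and without WT 2 (0.0932), so that the call was lost in each. *Il12rb2*, the IL-12 receptor chain that docks STAT4, had 29, 34, 12 and 9 counts in WT 1, WT 2, cKO 1 and cKO 2 (-1.47, adjusted p = 0.0962), with 40.0% of its exonic bases under *Serbp1* on the opposite strand. *Il18r1* had 0.45 (adjusted p = 0.0613). The level of *Stat4* itself overlapped between the genotypes, as given above. *Eomes*, a marker fixed for NK cells, also fell, from 39.8 and 32.3 CPM to 11.1 and 17.0 CPM (adjusted p = 0.0113), and the NK marker list summed to 43.6 and 33.7 CPM against 13.8 and 17.6 CPM, nearly all of it *Eomes*. Of the other NK markers, *Klrb1c* had 24, 7, 11 and 2 counts in WT 1, WT 2, cKO 1 and cKO 2 (-1.07, adjusted p = 0.437), and *Ncr1* and *Klre1* had 0 to 3 counts in each library. The part of NK cells in these values was not tested.

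Of 13 genes of the STAT5 list, all tested, 2 were called in opposite directions, where 2.35% of all tested genes were called higher and 1.95% lower. *Foxp3*, the gene of the factor that marks Treg cells, rose from 142 and 121 CPM to 405 and 547 CPM (1.86, SE 0.16, adjusted p = 0.000447), and was called in every alternative fit. *Foxp3* shares 18.6% of its exonic bases with *Flicr* on the same strand and 12.9% with *Ccdc22* on the opposite strand. *Pim2*, a kinase gene of cell survival, fell from 67.6 and 88.7 CPM to 52.4 and 45.5 CPM (-0.67, SE 0.16, adjusted p = 0.04997), and its call was lost without WT 2 (-0.47, adjusted p = 0.426). The median of the list was -0.13. The 6 Treg markers summed to 454 and 380 CPM in the WT libraries and to 821 and 1043 CPM in the cKO libraries, with all 6 higher in cKO and *Foxp3*, *Ctla4* and *Tnfrsf18* called. In bulk RNA a change in the number of cells of a type and a change in RNA per cell cannot be told apart. The part of Treg cells in the values of the receptor chains and of the STAT genes was not tested.

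Of 7 genes of the STAT6 list 4 were tested, and the 1 called was *Il4ra*, described above, where 2.35% of all tested genes were called higher. *Gata3*, the regulator of type 2 helper cells, was at 93.0 and 82.5 CPM against 117 and 124 CPM (0.45, adjusted p = 0.0564). *Gfi1*, a repressor gene induced by IL-4, had 0.20 (adjusted p = 0.640). *Stat6*, *Il4ra* and *Gata3* were each higher in both cKO libraries, as 24.8% of all tested genes were, with *Il4ra* alone past the threshold. *Il13* had 0 counts in all 4 libraries.

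Counted once each, the pathway lists held 103 genes, of which 85 were tested and 9 called (10.6%), 6 higher and 3 lower in cKO. Over all tested genes the share was 4.3%, with 2.35% higher and 1.95% lower. These lists and the STAT genes were chosen with results of these libraries known, so the share is a description. Some markers of other cells differed between the genotypes as well. The 8 B cell markers summed to 36.7 and 40.6 CPM in the WT libraries and to 168 and 69.0 CPM in the cKO libraries, and 2 of the 4 tested were called higher. The 8 myeloid markers summed to 34.6 and 42.2 CPM against 102 and 59.5 CPM, and 3 were called higher. They did not move as one, since 6 were higher and 2 lower, *Itgam* (log2 fold change -0.85) and *Cd68* (-0.29), neither called. For scale, the 6 T cell markers summed to 4562, 4537, 4803 and 4420 CPM. The 2 CD8 markers summed to 47.5 and 58.2 CPM against 34.1 and 26.7 CPM, with *Cd8b1* called lower, and the 5 dendritic cell markers to 2.96 to 6.47 CPM. The part of these cells in the STAT values was not tested.

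Of the 16 nearest tested genes around the STAT loci, 0 were called, beside 4.3% of all tested genes, so the count says nothing particular of them. On the chromosome 11 locus *Naglu*, beyond *Stat3*, had a log2 fold change of -0.77 (adjusted p = 0.0636), opposite in sign to *Stat3* and *Stat5b*. *Nabp1*, the nearest tested gene on the low-coordinate side of *Stat4*, had -0.39 (adjusted p = 0.114) at a distance of 508723 bases. *Nab2*, which overlaps the end of *Stat6*, had 0.03 (adjusted p = 0.946), whereas *Lrp1* on the other side of *Stat6* had 1.56 (adjusted p = 0.131) from 4.13, 4.03, 18.1 and 5.74 CPM, a value that rests on cKO 1.

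Over the 4 libraries, the genes nearest to each member in profile, among 7560 genes with an average of at least 100 counts, were *Baz2b* and *Camsap2* for *Stat3*, *Ermp1* and *Rab22a* for *Stat6*, and *Med26* and *Sun2* for *Stat5b*. They were *Brd8* and *Cars* for *Stat2*, *Eif4g1* and *Thumpd3* for *Stat5a*, and *Ankrd27* and *Zfp800* for *Stat4*. The root mean square difference of log2 CPM, each gene centred on its own mean, was 0.0025 to 0.022 for these pairs. With 4 points such likeness is common, since 85 genes lay within 0.1 of *Stat2* and 2459 within 0.1 of *Stat5a*.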

How the data were processed

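RNA-seq was made from splenic CD4+ T cells in 4 libraries (a kit not stated to mark strand, 50-base reads). Per the labels, the authors aligned reads to mm10 with HISAT2 2.1.0 and counted them per gene with HTSeq 0.11.1. The deposited values are raw counts. The annotation and strand setting are not given in the sources used here. Reads outside annotated features were 59.4% to 64.5% of those aligned to a single place and ambiguous reads 0.611% to 0.734%, and HTSeq summary lines stayed out of library sizes and tests.

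Libraries were grouped by label and compared, cKO against WT, in R 4.3.3 with edgeR 4.0.16. Genes were kept by filterByExpr, scaled by TMM (trimmed mean of M values), fitted with the quasi-likelihood F test on genotype with no covariate (two-sided), and adjusted by Benjamini-Hochberg over all 12403 genes. Calls needed an adjusted p under 0.05. CPM uses TMM-scaled library sizes. The common biological coefficient of variation was 10.3%. The study calls the libraries biological replicates, the labels do not say how they were drawn from animals, and p-values measure the spread between these samples. WT libraries and cKO libraries each differed by more than sampling noise (chi-square per degree of freedom 2.83 and 6.68). Reads carry no molecular identifiers, so PCR copies are not independent and intervals and floors understate the error.

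Named were all STAT genes reported here and Janus kinases, the called members of each list (up to 6) with the 2 uncalled of smallest p, the 2 nearest tested genes on each side of a locus, and the 2 genes most alike in profile. From marker lists, neighbours and interferon genes only some are printed, chosen after their values were seen. Members and lists were chosen with earlier results of these data known. A further gene of the family and some list genes are not reported here. Gene models came from GENCODE M21, promoters from RefSeq GRCm38.p6, and sequences were compared with Biopython 1.88. Alternatives were no low-count filter, a filter of 1 CPM in 2 libraries, other scalings, DESeq2 1.42.0, a likelihood ratio test, thinning to the smallest total, a replicate block and leaving out each library. The procedure was tested on simulated data. Plots were drawn with matplotlib 3.10.9.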

Additional observations from a re-analysis of the deposited data

How the results depend on the processing

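The signs of *Stat3*, *Stat5a*, *Stat5b* and *Stat6* held in all 12 alternatives. All alternatives with 4 libraries left *Stat2*, *Stat4*, *Stat5a*, *Stat5b* and *Stat6* uncalled, whereas *Stat3* passed the threshold at a log2 fold change of 0.38 without the low-count filter (adjusted p = 0.0155), in the likelihood ratio test (0.0398) and with a replicate block (0.0360). Leaving out a library at a time leaves 1 library in a genotype, which is then assumed to vary like the other. *Stat2* ran from -0.057 to 0.47 (called without cKO 1 only), *Stat3* from 0.26 to 0.50, *Stat4* from -0.037 to 0.11, *Stat5a* from -0.10 to -0.02, *Stat5b* from 0.11 to 0.35 and *Stat6* from 0.28 to 0.31. *Stat4* turned sign without WT 1 (-0.037) and without cKO 2 (-0.0094), *Gfi1* without cKO 1 (-0.13, range -0.13 to 0.45), and *Nab2* without WT 2 (-0.17) and without cKO 1 (-0.047, range -0.17 to 0.27). The number of genes called, 533, became 1367 without the filter, 1096 in the likelihood ratio test, 1165 with the replicate block and 180 to 1790 on leaving out a library. The number of pathway genes called, 9, became 21, 18 and 20 in the first 3 of these and 4 (without WT 2) to 37 (without cKO 2) when a library was left out. The cause was not tested. The replicate numbers do not pair the samples by any label, and same-numbered libraries deviated together with a correlation of 0.064 across genes. With the longest transcript as length, 3 of the 6 places in the order of levels stayed, and 4 with the shortened *Stat4*, an alternative chosen after seeing the data. Over 4 libraries DESeq2 called 427 genes, of which 384 were shared with the 533. With 2 libraries a side the intervals are wide, such as a fold of 0.85 to 1.23 for *Stat4*, so smaller changes were not detectable.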
